A study of Homo sapiens with 12 samples.

Results

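The CDK inhibitors and D cyclins are a set of 10 genes, matched by gene symbol to 10 rows of a table of 58735 genes. The set holds the 4 INK4 genes CDKN2A, CDKN2B, CDKN2C and CDKN2D, the 3 CIP/KIP genes CDKN1A, CDKN1B and CDKN1C, and the D cyclin genes CCND1, CCND2 and CCND3. Their RNA was measured by RNA sequencing in 2 human ovarian cell lines used as models of granulosa cell tumor (GCT), KGN, which is described as derived from an adult-type tumor, and COV434, described as derived from a juvenile-type tumor. Each line was sequenced untreated and after 72 h with 77-39, a small-molecule inhibitor of the mitochondrial deacetylase SIRT3, with 3 libraries in each of the 4 groups. The labels give the dose as 10, with a unit that mixes a length with a volume, so the concentration is uncertain. The treatment text is the same on untreated and treated samples, so which libraries are untreated rests on the sample titles alone, and so does each value of treated against untreated libraries. Neither line carries a labelled genetic change, both were grown in the same medium with serum, and each line stands for a single tumor. Nothing in the labels says that the 3 libraries of a group came from separate cultures, so the p-values measure the spread between these libraries, which may be technical.

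The labels of the lines were checked against genes that mark granulosa cells. FOXL2, a transcription factor of granulosa cells, was between 0 and 0.0195 FPKM (fragments scaled by gene length and library size) in the 6 KGN-labelled libraries, with 1 read over the untreated and 1 over the treated libraries, and between 11.5 and 14 FPKM in the 6 labelled COV434. SMARCA2, a chromatin remodelling ATPase, averaged 0.00773 FPKM in the untreated KGN-labelled libraries and 5.65 in those labelled COV434, and its relative SMARCA4 averaged 2.58 and 9.22 FPKM. Of 13 granulosa cell markers, 3 reached a mean of 1 FPKM in the untreated KGN-labelled libraries and 4 in those labelled COV434. FSHR, the FSH receptor, was listed at 0 in all libraries. Of those that reached 1 FPKM, AMH, INHA and INHBB were, like FOXL2, higher with the label COV434. They averaged 4.55, 1.06 and 0.00561 FPKM in the untreated KGN-labelled libraries and 8.24, 4.75 and 6.95 FPKM in those labelled COV434. WT1, another transcription factor on that list, alone went the other way, at 59.7 ± 2.85 FPKM in the untreated KGN-labelled libraries and with 0 reads in all 6 labelled COV434. The near absence of FOXL2 goes against the label KGN, and the markers do not all point one way, so the lines are called here by the labels of their libraries, and every direction between the lines rests on those labels. Of the other cell types checked, 5 leukocyte markers summed to at most 0.44 FPKM in any library. The 4 endothelial markers summed to at most 0.164 FPKM in a KGN-labelled library, and to 1.65 to 2.42 FPKM untreated and 0.382 to 0.699 FPKM treated with the label COV434, with CDH5 at 1.98 ± 0.36 and 0.506 ± 0.148 FPKM. The 5 epithelial markers summed to at most 0.343 FPKM with the label KGN, and to 355 to 477 FPKM untreated and 301 to 406 FPKM treated with the label COV434, where CLDN4 was at 1.48 ± 0.225 and 2.94 ± 0.437 FPKM. The 5 fibroblast markers summed to 14.6 to 16 FPKM untreated and 18.6 to 21.1 FPKM treated with the label KGN. LUM rose there (log2 fold change 0.43, limma adjusted p = 0.00338), while COL1A2 averaged 0.62 FPKM untreated and 0.377 FPKM treated. With the label COV434 the sums were 73.1 to 196 FPKM untreated and 103 to 188 FPKM treated. LUM averaged 118 FPKM untreated with that label, and COL1A2 and PDGFRA 0.00535 and 0 FPKM. The part of these markers of other cell types in the results was not tested. The libraries held 15547851 to 18280415 reads on genes, and mitochondrially encoded genes took 7.3% to 8.81% of them in the KGN-labelled libraries and 7.71% to 13.5% of those of COV434, where treated library 1 had the most.

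D cyclins bind and activate CDK4 and CDK6, which phosphorylate the retinoblastoma protein RB1 and its relatives, and this frees E2F factors to switch on genes of DNA replication. The INK4 proteins p16, p15, p18 and p19 bind CDK4 and CDK6 themselves and keep D cyclins off them, whereas the CIP/KIP proteins p21, p27 and p57 bind complexes of cyclin and CDK, and most strongly block those of CDK2. Several of the inhibitors rise when cells stop dividing for good in senescence, and cyclin D2 is known in the ovary for the growth of granulosa cells in response to FSH.

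All 10 genes had the same coordinates and gene length in the table as in release 29 of GENCODE on GRCh38. CDKN2A (ENSG00000147889) lies on the minus strand of chromosome 9 at chr9:21967753-21995301, and CDKN2B (ENSG00000147883) lies next to it on the same strand at chr9:22002903-22009363. The sequences of this pair matter here because the table holds a single value for CDKN2A, although the gene makes 2 proteins that are not related to each other. The p16 transcript CDKN2A-201 and the ARF transcript CDKN2A-214 begin in different first exons, and their first 60 coding bases, read from the GENCODE transcripts with the start codon in capitals, are as follows.
CDKN2A-201, p16, chr9:21974768-21974827: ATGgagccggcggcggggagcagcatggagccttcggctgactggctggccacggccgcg
CDKN2A-214, ARF, chr9:21994272-21994331: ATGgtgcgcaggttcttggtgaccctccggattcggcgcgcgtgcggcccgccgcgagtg
The transcripts then share 797 bases, after 421 bases of CDKN2A-201 and 486 bases of CDKN2A-214 that each has for itself. A read from the shared bases cannot be given to either protein. CDKN2A and CDKN2B are also alike in part. Of the 1169 windows of 50 bases in CDKN2A-201, 31 (2.65%) occur unchanged in CDKN2B-201, and of the 1119 windows of 100 bases none does, so few reads could be split between these paralogs by an exact match.

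In the untreated libraries the lines used different members of the family, as the plot of FPKM by library shows. FPKM is scaled here by the length of all annotated exons of a gene together, which can exceed that of the transcripts made. For CDKN2A it was 4329 bases, against 1218 for CDKN2A-201 and 1283 for CDKN2A-214. Orders, shares, sums and ratios across genes are therefore rough, while comparisons of the same gene between libraries use the same length. In the KGN-labelled libraries, CCND3 was the highest member at 170 ± 6.6 FPKM (SD, n = 3), followed by CDKN1A at 72.4 ± 3.53, CDKN2A at 17 ± 0.497, CDKN1B at 14.1 ± 0.717, CDKN2C at 9.58 ± 0.597, CDKN2D at 8.16 ± 0.0224 and CDKN2B at 1.39 ± 0.0638. CDKN1C, CCND1 and CCND2 stayed under 1 FPKM. Among neighbours in this order, the ranges over libraries overlapped between CDKN1C, at 0.392 to 0.543 FPKM, and CCND1, at 0.235 to 0.41 FPKM.

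Across the untreated COV434-labelled libraries the order was CDKN2A at 65 ± 13.4 FPKM, CDKN1A at 56.8 ± 1.75, CDKN2C at 52.5 ± 3.2, CDKN1B at 38.1 ± 3.34, CCND1 at 33.7 ± 10.2, CCND3 at 28.9 ± 1.25, CDKN1C at 17.2 ± 0.905, CDKN2B at 10.2 ± 0.46 and CDKN2D at 2.85 ± 0.9. CDKN2A, at 53.4 to 79.7 FPKM, overlapped CDKN1A and CDKN2C, and CCND1, at 25.2 to 44.9 FPKM, overlapped CDKN1B and CCND3. CCND2 was listed at 0 in all 6 COV434-labelled libraries, which allows at most 0.0253 FPKM in an untreated and 0.028 FPKM in a treated library when 3 reads are taken as the limit of a count of 0. This limit and the other read intervals cover counting error only.

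**Figure D1:**
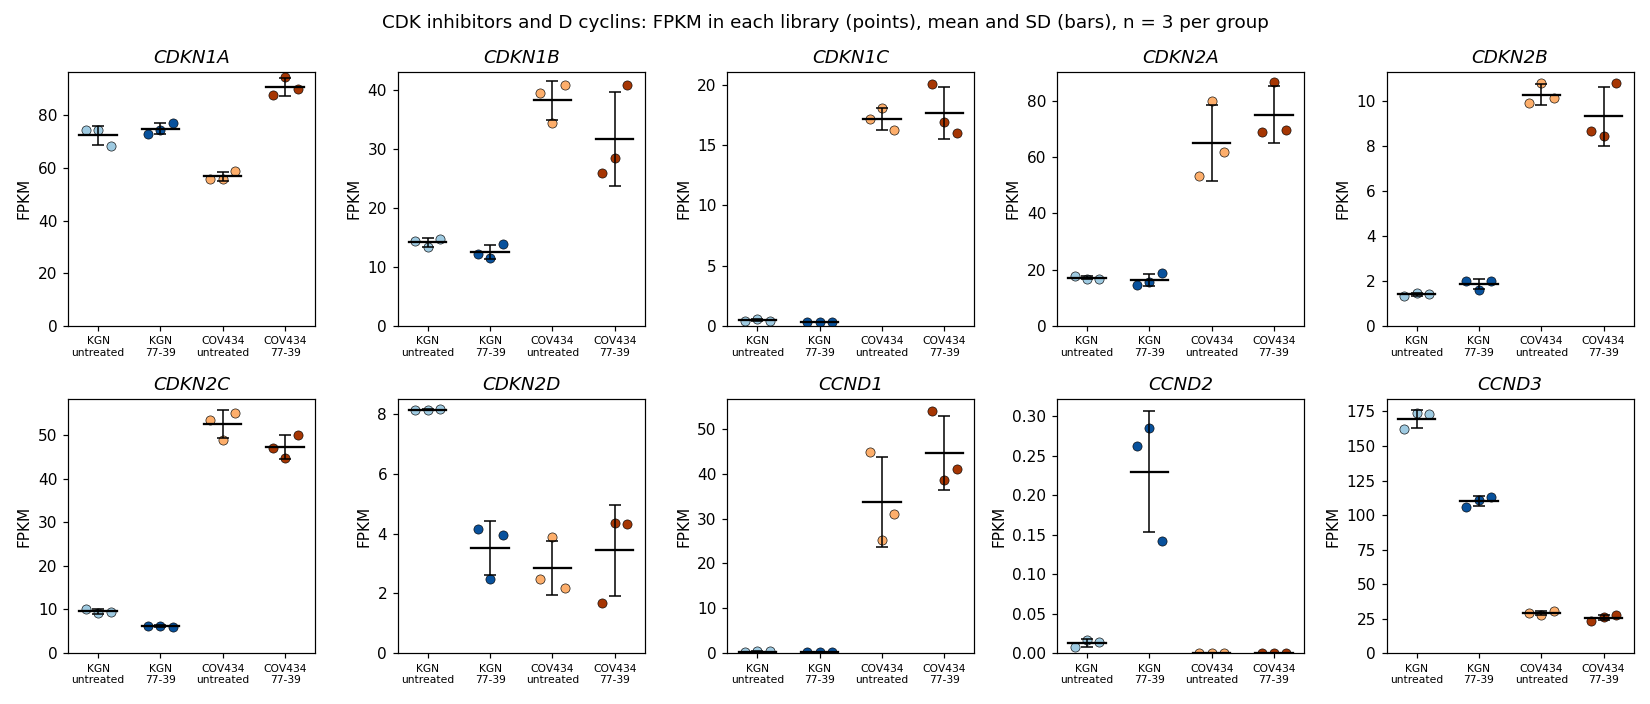
Level of each CDK inhibitor and D cyclin gene in FPKM (vertical axes, from 0) in the 4 groups of libraries; points are libraries, and bars are the mean and SD of 3. CCND3 sits at 162 to 174 FPKM in the untreated and 106 to 113 in the treated KGN-labelled libraries, and CDKN1A at 55.7 to 58.8 and 87.6 to 94.5 FPKM in those labelled COV434.

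The untreated lines were compared by limma on log2(FPKM + 1), keeping genes that averaged 1 FPKM or more, a scale on which changes of low genes are understated. Of the members, 7 averaged over 1 FPKM in both lines, and all 7 were called, 4 being higher and 3 lower in the COV434-labelled libraries, on a background of 69.0% of all genes tested at an adjusted p under 0.05 and 72.0% at an unadjusted p under 0.05. CCND1 and CDKN1C entered the test only through the line in which they were high, so their differences are given as values. CCND1, the D cyclin induced by growth factor signalling, was at 0.235, 0.351 and 0.41 FPKM with the label KGN and at 44.9, 25.2 and 31.1 FPKM with the label COV434. CDKN1C, which encodes p57, averaged 0.455 ± 0.0787 and 17.2 ± 0.905 FPKM. CCND3 was at 162, 174 and 173 FPKM with the label KGN and lower, at 28.7, 27.8 and 30.3 FPKM, with the label COV434 (log2 difference -2.51, SE 0.089, limma adjusted p = 8e-07). CDKN2C was higher in the COV434-labelled libraries by 2.34 on the log2 scale, CDKN2B by 2.23, CDKN2A by 1.85 and CDKN1B by 1.37. CDKN2D, which encodes p19, was lower there by a log2 difference of -1.27. The difference in CDKN1A, -0.34 on the log2 scale (limma adjusted p = 0.0121), was the smallest of the 7, and its adjusted p was 0.0567 without untreated library 2 labelled KGN. In bulk RNA, fewer cells that express a gene and less of its RNA in each cell cannot be told apart.

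After 77-39, the KGN-labelled libraries had less RNA of cyclin D3 and of 2 INK4 genes. Of the 7 members tested, 3 fell and none rose at an adjusted p under 0.05, where 34.0% of all genes tested were called in either direction. At an unadjusted p under 0.05, the threshold of the study, 3 fell and 1, CDKN2B, rose, against 45.3% of all genes. By voom on reads recovered from FPKM and gene length, CDKN2B and CCND2 were called as higher. The median log2 fold change of the 7 members was -0.17, and that of all genes tested was 0.01. In 49.7% of the genes tested in these libraries, treated and untreated libraries did not overlap, and this was so for 4 of the 7 members tested, CDKN2B in the higher and CCND3, CDKN2C and CDKN2D in the lower direction. Of the members not tested, CCND2 was higher and CDKN1C lower without overlap.

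CCND3 (ENSG00000112576) lies on the minus strand at chr6:41934933-42050357 and encodes cyclin D3. Its level was 162, 174 and 173 FPKM in untreated libraries 1 to 3 and 106, 111 and 113 FPKM in treated libraries 1 to 3 labelled KGN. Each treated library was below each untreated one, and the log2 fold change was -0.62 (SE 0.051, limma adjusted p = 0.000464), which is 0.651 of the untreated level on this scale. Within the COV434-labelled libraries the same gene stood at 28.7, 27.8 and 30.3 FPKM untreated and 23.4, 26.3 and 27.4 FPKM treated. These groups did not overlap either, but the log2 fold change of -0.17 had a 95% interval of -0.49 to 0.15 and a limma adjusted p of 0.873. AL513008.1, with 24 shared exon bases on the opposite strand, averaged at most 0.352 FPKM in any group.

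CDKN2C (ENSG00000123080), on the plus strand at chr1:50960745-50974633, encodes p18. It was at 10.2, 9.08 and 9.4 FPKM in the untreated and at 6.3, 6.23 and 5.86 FPKM in the treated KGN-labelled libraries. The groups lay apart, and the log2 fold change was -0.57 (SE 0.057, limma adjusted p = 0.000834). Among the COV434-labelled libraries, where the gene was about as high as CDKN1A, it was at 53.5, 48.9 and 55.1 FPKM untreated and 46.9, 44.7 and 50.1 FPKM treated. The treated library was the lower in each of the 3 pairs of equal number, but the groups overlapped, with a log2 fold change of -0.15 (95% interval -0.48 to 0.18, limma adjusted p = 0.899). Such counts over pairs, here and below, have no share over all genes beside them and are not evidence of a shift.

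CDKN2D (ENSG00000129355), on the minus strand at chr19:10566462-10569059, fell further than any other member tested in the KGN-labelled libraries. It was at 8.15, 8.14 and 8.18 FPKM untreated and at 4.14, 2.49 and 3.94 FPKM treated, a log2 fold change of -1.04 (SE 0.14, limma adjusted p = 0.00241). The untreated libraries were almost level, while treated library 2 was lower than the other two. The COV434-labelled libraries held 2.49, 3.87 and 2.19 FPKM untreated and 1.69, 4.34 and 4.32 FPKM treated, and their groups overlapped (log2 fold change 0.16, 95% interval -0.51 to 0.84, limma adjusted p = 0.974). The low treated library there, library 1, was the one with 13.5% mitochondrial reads, and without it the log2 fold change was 0.49 (limma adjusted p = 0.496).

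CDKN2B, which encodes p15, was at 1.33, 1.46 and 1.39 FPKM untreated and 2.01, 1.61 and 1.98 FPKM treated in the KGN-labelled libraries. Each treated library was above the untreated ones, yet the log2 fold change of 0.26 (95% interval 0.05 to 0.47) had a limma adjusted p of 0.0607. By voom on the recovered reads, 312 untreated and 397 treated, it was 0.42 with an adjusted p of 0.0295. For the COV434-labelled libraries, CDKN2B was at 9.89, 10.8 and 10.1 FPKM untreated and 8.64, 8.44 and 10.8 FPKM treated, with overlapping groups (log2 fold change -0.13, limma adjusted p = 0.922).

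CDKN2A was at 17.6, 16.8 and 16.7 FPKM untreated and 14.5, 15.6 and 18.8 FPKM treated in the KGN-labelled libraries, so that the treated libraries lay on both sides of the untreated ones. The log2 fold change was -0.07 with a 95% interval of -0.28 to 0.14 (limma adjusted p = 0.585). Across the COV434-labelled libraries it was at 53.4, 79.7 and 61.7 FPKM untreated and 68.9, 86.6 and 69.6 FPKM treated. The treated library was the higher in each of the 3 pairs of equal number, but library 2 was the highest of both groups, the groups overlapped, and the log2 fold change of 0.22 had a 95% interval of -0.23 to 0.66 (limma adjusted p = 0.888). It was 0.09 without untreated library 1, 0.37 without untreated library 2 and 0.11 without treated library 2. The antisense gene CDKN2B-AS1, which overlaps 341 exon bases of CDKN2A on the opposite strand, averaged 0.363 to 0.453 FPKM in the 4 groups. The library kit as labelled does not mark strand, so reads of the shared bases cannot be told apart.

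CDKN1A (ENSG00000124762), on the plus strand at chr6:36676460-36687339, encodes p21, a classical target of p53. Within the KGN-labelled libraries it was at 74.5, 74.4 and 68.3 FPKM untreated and 72.9, 74.5 and 77.2 FPKM treated. These groups overlapped, and the log2 fold change was 0.05 with a 95% interval of -0.07 to 0.17 (limma adjusted p = 0.499). Among the COV434-labelled libraries it was at 55.7, 55.8 and 58.8 FPKM untreated and 87.6, 94.5 and 89.9 FPKM treated. Every treated library there was above every untreated one, and in FPKM as deposited also above every library labelled KGN. The read total behind FPKM was 1.07 to 1.1 times the recovered reads with the label KGN. It was 0.911 to 0.978 times with the label COV434, so this order between the lines depends on the scaling. Within the COV434-labelled libraries the log2 fold change of CDKN1A was 0.67 (SE 0.14, 95% interval 0.35 to 0.99) or 1.59-fold on this scale. Its unadjusted p in limma was 0.00129 and its adjusted p was 0.17. DINOL, which shares 146 exon bases on the opposite strand, averaged at most 0.15 FPKM in any group. The adjusted p of CDKN1A was 0.0475 with the library number as a block, 0.00133 in a fit of all 12 libraries, and up to 0.673 over the alternatives.

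CDKN1A was the sole one of 9 members tested in the COV434-labelled libraries to pass an unadjusted p of 0.05, where 8.0% of all genes passed, and no member passed after adjustment, where 0.0415% did. No member was called there by voom either. The median log2 fold change of the 9 members was 0.03, against -0.02 for all genes tested. Treated and untreated COV434-labelled libraries did not overlap in 14.4% of genes tested, and among the members in CDKN1A and CCND3.

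CDKN1B, which encodes p27, was at 14.4, 13.3 and 14.7 FPKM untreated and 12.2, 11.5 and 13.8 FPKM treated in the KGN-labelled libraries (log2 fold change -0.17, limma adjusted p = 0.118). Treated library 3 reached into the untreated range, and without it the log2 fold change was -0.23 with an adjusted p of 0.031. For the COV434-labelled libraries it was at 39.4, 34.4 and 40.7 FPKM untreated and 25.9, 28.4 and 40.7 FPKM treated. Treated libraries 1 and 2 were below the untreated ones and treated library 3 was level with the highest of them (log2 fold change -0.29, 95% interval -0.73 to 0.16, limma adjusted p = 0.824).

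CDKN1C was present in the KGN-labelled libraries with 18, 23 and 21 reads untreated and 15, 14 and 13 reads treated, 0.455 ± 0.0787 and 0.323 ± 0.0101 FPKM, and was not tested there. The ratio of its summed reads scaled by depth, treated to untreated, was 0.715 with a 95% counting interval of 0.471 to 1.07. Across the COV434-labelled libraries it was at 17.2, 18.1 and 16.3 FPKM untreated and 20.1, 16.9 and 16 FPKM treated, with overlapping groups (log2 fold change 0.03, 95% interval -0.31 to 0.37, limma adjusted p = 0.991).

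CCND1 (ENSG00000110092), at chr11:69641087-69654474 on the plus strand, was in the COV434-labelled libraries the D cyclin with the widest spread. It was at 44.9, 25.2 and 31.1 FPKM untreated and at 54, 38.6 and 41.1 FPKM treated. The treated library was the higher in each of the 3 pairs of equal number, library 1 was the highest of both groups, and the groups overlapped (log2 fold change 0.42, 95% interval -0.12 to 0.96, limma adjusted p = 0.763). The log2 fold change was 0.64 without untreated library 1, 0.23 without untreated library 2 and 0.27 without treated library 1, none of them called. With the library number as a block, its limma p was 0.00842 unadjusted and 0.175 adjusted, so that CCND1 joined CDKN1A at the unadjusted threshold. Within the KGN-labelled libraries it had 21, 29 and 39 reads untreated and 21, 21 and 21 reads treated, or 0.332 ± 0.0895 and 0.249 ± 0.0104 FPKM. LTO1, which shares 497 exon bases with CCND1 on the opposite strand, averaged 2.59 and 2.78 FPKM in those libraries, above CCND1 itself.

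CCND2 (ENSG00000118971), at chr12:4273772-4305350 on the plus strand, was the rarest member and was seen in the KGN-labelled libraries alone. Untreated libraries 1 to 3 held 1, 2 and 2 reads, and treated libraries 1 to 3 held 34, 36 and 17 reads. All treated libraries were above all untreated ones, and the ratio of reads scaled by depth was 18.4 with a 95% counting interval of 7.58 to 58, at a treated level of only 0.23 ± 0.0769 FPKM. It was below the minimum level of the test. With a minimum of 0.1 FPKM its limma adjusted p was 0.0568, with no minimum 0.0285, and by voom on the recovered reads 2.06e-05. CCND2-AS1, which shares 126 exon bases with it on the opposite strand, averaged 0.00507 FPKM untreated and 0.0532 FPKM treated in the same libraries, and its part in the CCND2 reads was not tested. AC008012.1, which shares 989 exon bases on the same strand, was listed at 0 in all groups.

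**Figure D2:**
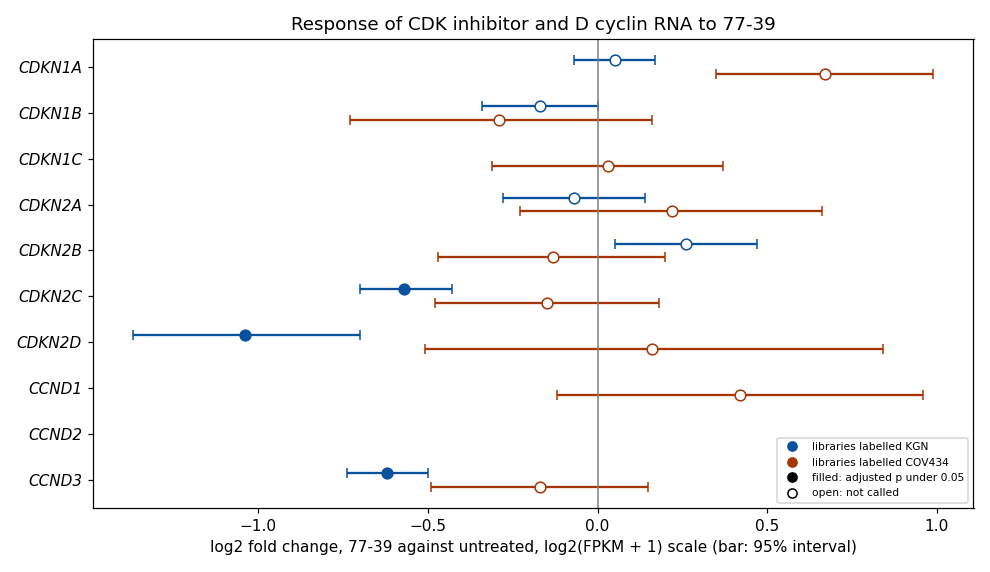
Log2 fold change of each member after 77-39 on the log2(FPKM + 1) scale (horizontal axis) with its 95% interval, in the KGN-labelled libraries (blue) and COV434 (brown); filled points have an adjusted p under 0.05. CDKN2D at -1.04, CCND3 at -0.62 and CDKN2C at -0.57 in the KGN-labelled libraries are the filled points, and genes under 1 FPKM have none.

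The response to 77-39 was then compared between the lines as the interaction of line and treatment over all 12 libraries. Among the 9 members tested, CCND1 and CDKN1C passed the minimum level only through the COV434-labelled libraries. CDKN1A was the member called, where 3.60% of all genes were called. Its response in the KGN-labelled libraries minus that in the COV434-labelled libraries was -0.62 on the log2 scale (SE 0.11, 95% interval -0.87 to -0.37, limma adjusted p = 0.0183). It was called in 16 of 20 settings. The adjusted p of CDKN1A was 0.0519 without untreated library 1 labelled KGN, 0.0678 without untreated library 2, 0.0689 without treated library 1 and 0.0673 without treated library 2 of the same label.

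The members that fell in the KGN-labelled libraries had lower responses there, but these differences did not pass adjustment. The difference in response was -1.2 for CDKN2D (95% interval -2.01 to -0.4, limma adjusted p = 0.105), -0.46 for CCND3 (-0.73 to -0.18, adjusted p = 0.0716) and -0.42 for CDKN2C (-0.68 to -0.16, adjusted p = 0.0847). CDKN2B had a difference of 0.39 (0.08 to 0.7, adjusted p = 0.161). With CDKN1A, these make 5 of 9 members at an unadjusted p under 0.05, where 18.0% of all genes passed. The 9 include CCND1 and CDKN1C, at 0.332 and 0.455 FPKM in the untreated KGN-labelled libraries, where the scale understates their responses. Without treated library 1 labelled COV434, CDKN2D (-1.53, limma adjusted p = 0.0113) and CCND3 (-0.52, adjusted p = 0.0262) were called as well, and without treated library 3 of that label CDKN2B was called (0.49, adjusted p = 0.0442).

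Summed over the family, the lines differed in which D cyclin made up the pool. Among the KGN-labelled libraries, CCND3 made up 99.8% ± 0.049 of D cyclin FPKM untreated and 99.6% ± 0.068 treated, and the pool went from 170 ± 6.69 to 110 ± 3.3 FPKM. For the COV434-labelled libraries, CCND1 made up 53.1% ± 7.1 untreated and 63.1% ± 5.8 treated, with CCND3 as the rest, and the pool was 62.7 ± 10.4 and 70.3 ± 6.45 FPKM. Library by library it was 73.7, 53 and 61.4 FPKM untreated and 77.5, 65 and 68.4 FPKM treated, so the groups overlapped, with the treated library the higher in each of the 3 pairs of equal number.

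**Figure D3:**
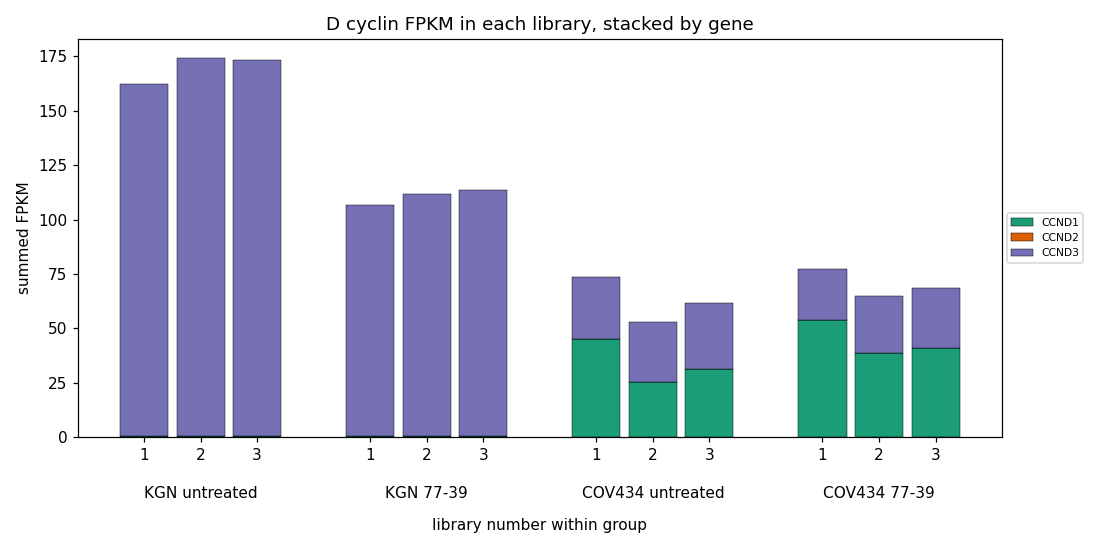
Summed FPKM of CCND1, CCND2 and CCND3 (vertical axis, from 0) in each of the 12 libraries, stacked by gene. The KGN-labelled libraries hold CCND3 almost alone, at 99.8% untreated and 99.6% treated, and those labelled COV434 hold CCND1 and CCND3 side by side.

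The 4 INK4 genes together were at 36.2 ± 1.01 FPKM untreated and 27.8 ± 2.44 FPKM treated in the KGN-labelled libraries, and at 131 ± 12 and 135 ± 8.98 FPKM in those labelled COV434. The 3 CIP/KIP genes were at 86.9 ± 3.12 and 87.7 ± 3.16 FPKM in the KGN-labelled libraries and at 112 ± 3.73 and 140 ± 6.5 FPKM in those labelled COV434. Of these sums, CDKN1A averaged 72.4 untreated and 74.9 FPKM treated with the label KGN, and 56.8 and 90.7 FPKM with the label COV434. The ratio of the 7 inhibitors to the D cyclins was 0.725 ± 0.048 untreated and 1.05 ± 0.0375 treated in the KGN-labelled libraries, with the pool of D cyclins as the part that moved more. It was 3.96 ± 0.804 and 3.95 ± 0.528 in those labelled COV434. These sums are of RNA and add genes of different function, each scaled by the length of all its annotated exons, and no test was made on them.

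**Figure D4:**
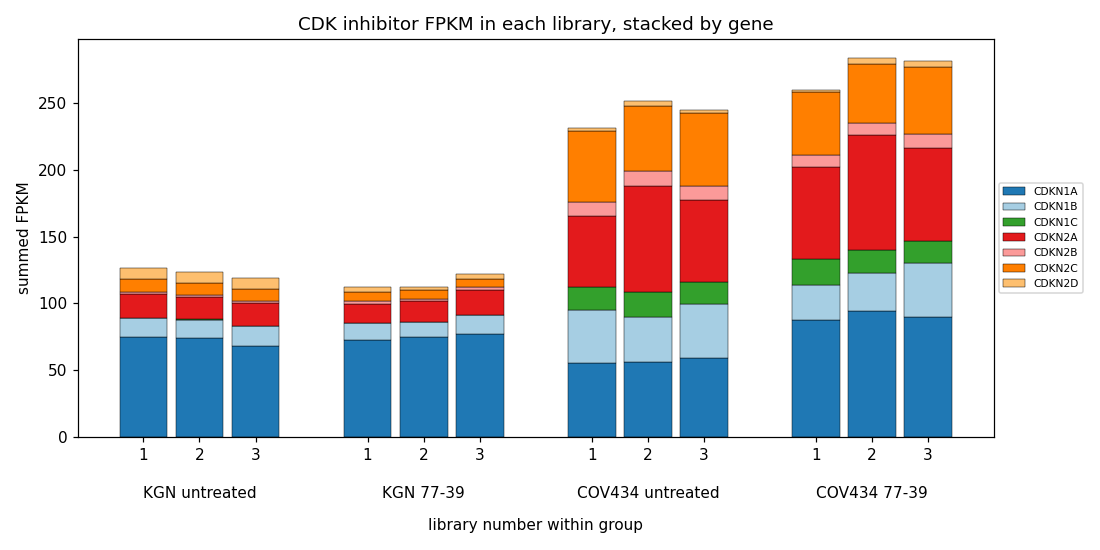
Summed FPKM of the 7 CDK inhibitor genes (vertical axis, from 0) in each of the 12 libraries, stacked by gene. CDKN1A is the largest part in the KGN-labelled libraries, where all 7 sum to 123 ± 3.78 FPKM untreated and 116 ± 5.52 treated. CDKN2A and CDKN2C add to it in those labelled COV434, where all 7 sum to 243 ± 10.2 FPKM untreated and 275 ± 13.3 treated.

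The genes around these members, the CDKs, pocket proteins, E2F factors, cyclins E and A, kinases and phosphatases that act on CDKs, turnover factors, regulators of the inhibitor genes and E2F target genes of S phase, were taken as 8 lists of 59 genes. Across the KGN-labelled libraries, 30 of the 56 tested fell and 4 rose at an adjusted p under 0.05, where 34.0% of all genes tested were called, and their median log2 fold change was -0.23, against 0.01 for all genes. All 12 S-phase targets fell, with a median of -0.94, MCM5, a subunit of the replicative helicase, going from 11.4 ± 0.295 to 4.57 ± 0.0711 FPKM (log2 fold change -1.15, limma adjusted p = 7.2e-05). Within the COV434-labelled libraries none of the 56 tested was called by limma after adjustment, 7 were lower and none higher at an unadjusted p under 0.05, where 8.0% of all genes passed, and the median was -0.12, against -0.02 for all genes.

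Of the CDK partners, CDK4 was at 82 ± 1.7 FPKM untreated and 72.2 ± 3.85 treated in the KGN-labelled libraries, a fall of small size (log2 fold change -0.18, limma adjusted p = 0.0342), and CDK2 fell further (-0.65, adjusted p = 0.000497). CDK6 was at 0.0191 ± 0.00642 FPKM in the untreated KGN-labelled libraries, where it was not tested, and at 5.53 ± 0.398 FPKM in those labelled COV434. The D cyclins of the KGN-labelled libraries stood beside CDK4 RNA with almost no CDK6 RNA. RB1, the main target of these kinases, was at 10.4 ± 0.808 and 11.1 ± 0.299 FPKM (log2 fold change 0.08, limma adjusted p = 0.348), and its relative RBL1 fell (-0.38, adjusted p = 0.00381).

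Of the E2F and DP factors tested in the KGN-labelled libraries, 6 of 10 fell and 1 rose, E2F1 by -0.99 on the log2 scale (limma adjusted p = 0.000183), while E2F4, a repressor in resting cells, had a log2 fold change of -0.01 (adjusted p = 0.95). Among cyclins E and A, CCNA2 (-0.86, limma adjusted p = 0.000172) and CCNE1 (-0.35, adjusted p = 0.0139) fell, and CCNE2 had a log2 fold change of -0.28 (adjusted p = 0.106). CDC25A, a phosphatase that activates CDK2, fell (-0.56, limma adjusted p = 0.00178), as did 1 other of the 4 genes of CDK activation. SKP2, which marks p27 for degradation, and its cofactor CKS1B fell by 0.23 and by 0.35 on the log2 scale, the called genes among 9 of turnover. Of 13 regulators of the inhibitor genes tested, 3 rose and 3 fell, and the counts of called genes in these short lists stand against 34.0% of all genes. BMI1, a Polycomb protein known to silence CDKN2A, rose by 0.63 (limma adjusted p = 0.000946), MDM2, a p53 target and p53 inhibitor, rose by 0.31 (adjusted p = 0.0178), and SMARCA4 had a log2 fold change of -0.1 (adjusted p = 0.239).

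**Figure D5:**
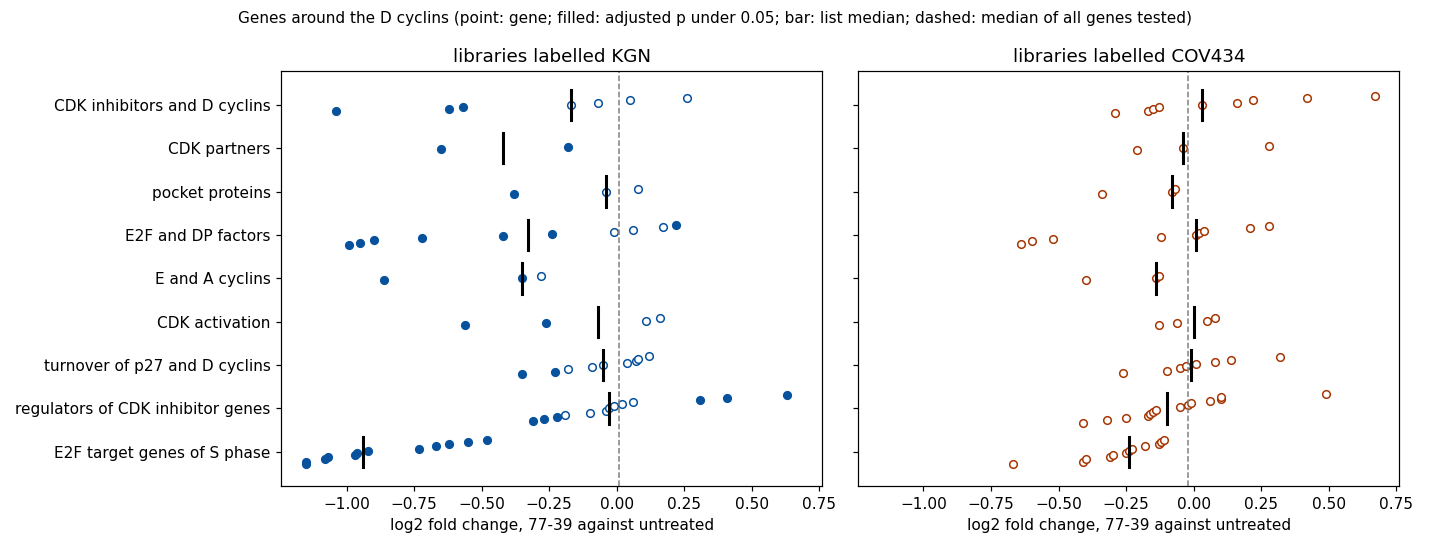
Log2 fold change after 77-39 (horizontal axis) of each tested gene of the CDK inhibitor and D cyclin set and of the 8 lists around it, in the KGN-labelled libraries (left) and COV434 (right); filled points have an adjusted p under 0.05, bars are list medians, and the dashed line is the median of all genes tested. The S-phase targets have a median of -0.94 on the left and -0.24 on the right, with no filled point on the right.

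Over the 12 libraries, after the mean of each line was subtracted from log2(FPKM + 1), the genes most like CDKN1A among 10234 were PRSS16 (Pearson r = 0.968), FDXR (0.966) and UBE2L6 (0.961). UBE2L6 went from 2.38 ± 0.608 to 8.09 ± 0.396 FPKM in the COV434-labelled libraries and from 12.5 ± 0.0444 to 11.2 ± 0.868 FPKM in those labelled KGN. The genes most like CDKN2C were BIRC5 (0.978), APH1B (0.976) and TACC3 (0.973), of which BIRC5, the mitotic protein survivin, went from 19.7 ± 1.99 to 11.9 ± 0.207 FPKM in the KGN-labelled libraries. Those most like CCND1 were PHF8 (0.983), PML (0.977) and ZNFX1 (0.96), a likeness that rests on the COV434-labelled libraries, since CCND1 was under 1 FPKM in the others. These values describe the 12 libraries, which share the treatment, and the highest of so many genes are high in part by selection.

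The promoters of the members were searched for short motifs. The RefSeq table on GRCh38.p14 held 12 start sites of 7 members, and CDKN1C, CCND1 and CCND2 had no entry. Below are 120 bases before a single start of CDKN1A and of each gene that fell, with the GC box GGGCGG or its complement in capitals. These bases lie in no annotated exon of the gene, so they need not reach the start itself.
CDKN1A, plus strand, chr6:36678538-36678657: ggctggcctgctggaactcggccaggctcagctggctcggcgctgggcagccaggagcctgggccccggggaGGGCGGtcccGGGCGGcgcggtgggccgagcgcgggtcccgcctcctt
CCND3, minus strand, chr6:41941849-41941968: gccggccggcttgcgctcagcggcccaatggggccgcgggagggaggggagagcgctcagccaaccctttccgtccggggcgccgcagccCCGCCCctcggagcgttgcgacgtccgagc
CDKN2D, minus strand, chr19:10569060-10569179: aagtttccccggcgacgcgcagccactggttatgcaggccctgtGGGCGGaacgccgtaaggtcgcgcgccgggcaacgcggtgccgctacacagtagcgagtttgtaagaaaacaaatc
CDKN2C, plus strand, chr1:50960625-50960744: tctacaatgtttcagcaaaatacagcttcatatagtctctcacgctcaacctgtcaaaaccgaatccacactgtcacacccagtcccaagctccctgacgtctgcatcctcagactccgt
In the 250 bases before the start, on both strands and with overlaps counted, the GC box was found at 9 of the 12 member starts, against 42.6% of 35116 promoters. The CDKN2C stretch shown holds none, but its starts at positions 50968706 and 50970245 have 5 and 1. The CCND3 stretch shown belongs to the start at position 41941808, which has 2, and its starts at 42048688 and 41939205 have 5 and 0. The E2F motifs TTTCCCGC and TTTGGCGC were found at 0 of 12 starts and in 1.93% of all promoters. The CCAAT box, CCAAT, was found at 5 of 12 and in 32.0%, TGACG, the core of the site of CREB factors, at 4 of 12 and in 21.2%, and the TATA box, TATAAA, at 0 of 12 and in 10.7%. A match is a run of letters and not a bound site, and members that fell and members that did not both had GC boxes.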

How the data were processed

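RNA of 12 libraries was sequenced by the authors on an Illumina NovaSeq after TruSeq preparation, and the deposited values are FPKM per gene. The submitters' processing notes name HISAT2 2.0.5 and mouse builds, and the extraction text names retinas, but the table's coordinates are those of human GENCODE release 29. Counting software is not given in the sources used here.

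FPKM times gene length gave whole reads for 100% of values (tolerance 0.05 reads), from which depth was recovered. Each line was fitted with limma 3.58.1 in R 4.3.3 (lmFit, eBayes with trend) on log2(FPKM + 1), for genes that averaged 1 FPKM or more, two-sided, with Benjamini-Hochberg adjustment over all genes tested, and a gene was called at 0.05. Fits were tested on simulated data. No libraries were identical. Motifs and sequences were read with Python 3.11.15. Counting intervals are exact at 95%.

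In the libraries labelled COV434, the deviations of treated and untreated libraries correlated at 0.4 for number 1 and 0.474 for number 2. Number 3 gave 0.166, close to the 0.154 of untreated library 3 with treated library 2, so it is not shown to be paired. The other pairs of unequal number gave -0.469 to 0.0152. Deviations are taken from the mean of 3 libraries, so these values are not independent. Any pairing comes from the data and not from a label, and fits with the library number as a block rest on it. The members and gene lists were chosen with earlier results of these data known. The genes named are all members, 12 pathway genes with the most changed called gene of each list and genes that overlap a member in exons. The 3 genes most like CDKN1A, CDKN2C and CCND1, and genes used to check the labels and cell types, are named as well. The authors' comparisons were not used. Some sequences are not reported here.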

Additional observations from a re-analysis of the deposited data

Results flagged for a closer look

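The response of CDKN1A to 77-39 differed between the lines by the test of the difference itself, at -0.62 on the log2 scale for the libraries labelled KGN minus those labelled COV434 (limma adjusted p = 0.0183). The treated library was the higher in 3 of 3 pairs of equal number labelled COV434 and in 2 of 3 labelled KGN. With the label KGN, number 2 was at 74.4 FPKM untreated and 74.5 FPKM treated. Library numbers did not pair the libraries of that label, so its count is arbitrary.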

How the results depend on the processing

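Each comparison was repeated with a pseudocount of 0.1, a minimum of 0.1 FPKM or none, median-ratio scaling, the library number as a block, a joint fit of all 12 libraries and the removal of each library. Voom on the recovered reads and FPKM rescaled to the recovered reads were added after seeing the data. A planned count test was not run, because the deposited unit is FPKM. CCND3, CDKN2C and CDKN2D were called in 15 of 15 settings in the libraries labelled KGN. The number of members that rose there, 0, was 1 with no minimum and 2 by voom. In the libraries labelled COV434 the number that rose, 0, was 1 with the replicate block and 1 when all 12 libraries were fitted jointly. The number of members with a higher response in KGN, 0, was 1 with no minimum and 1 by voom (CCND2, which has 0 reads labelled COV434 and so no response there to compare), and 0 to 1 when a library was left out, and the number with a lower response, 1, was then 0 to 3. Without treated library 1 of its label, CDKN2A in KGN turned to 0.01 (range -0.17 to 0.01 over the libraries left out) and CDKN1C in COV434 to -0.06, and the difference in response of CDKN1B turned to -0.01 without treated library 1 labelled COV434 (range -0.01 to 0.31). The cause was not tested.

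Between the untreated lines, the median of all genes was 0.024 on the log2 scale, -0.305 by voom and -0.157 after rescaling, and of the 7 members above 1 FPKM in both lines, 6 were called in 15 of 15 settings, each in 1 direction. CDKN1A had -0.56 by voom and an adjusted p of 0.0626 with the replicate block. Library numbers did not pair the libraries labelled KGN (correlations -0.0164, -0.018 and -0.019) or the untreated lines (-0.137, -0.13 and -0.083), and the block moved no other call of a member. Over all genes, adjusted calls labelled COV434 numbered 1 up and 4 down, against 39 and 48 with the block, 223 and 257 when all 12 libraries were fitted jointly and 23 and 25 by voom, and those labelled KGN 2230 and 2077, against 446 and 569 jointly. Depth limits CCND2, CDKN1C and CCND1 in the libraries labelled KGN.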
